A study of Mus musculus with 6 samples.

Results

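Amacrine cells and retinal ganglion cells are the neurons of the inner retina. Amacrine cells are interneurons that shape the signals passing from bipolar cells to ganglion cells, and their many types differ in the transmitter, neuropeptide or calcium-binding protein they carry. Retinal ganglion cells (RGCs) are the output neurons, whose axons form the optic nerve and whose loss defines glaucoma. The genes described here are 42 listed markers of these neurons, 24 of amacrine cells and 18 of RGCs, chosen by name and matched by symbol to the 55421 genes of the count table. All 42 matched 1 gene each, none shared exon bases with another gene on its strand, and all 42 were among the 16575 genes that passed the filter on low counts.

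The libraries came from whole retinas of 2-month-old mice, 3 controls and 3 conditional knockouts of Yap, a transcriptional co-activator of the Hippo pathway that binds DNA through TEAD factors. Controls (YR612, YR613 and YR615) were Yap fl/fl and Yap cKO retinas (YR711, YR713 and YR714) were Yap fl/fl;RaxCreERT2. All 6 mice received 4OH-T, the tamoxifen metabolite that activates CreERT2, at P10 and P14, so the groups share the floxed allele and the drug and differ by the Cre transgene. Per the study's methods, the retinas were independent biological replicates and the Rax-driven Cre deletes Yap in Müller glia and in the non-pigmented epithelium of the ciliary body, so neither amacrine cells nor RGCs are the intended site of deletion. Sex-linked transcripts divided the controls into 1 female and 2 males and the Yap cKO mice into 2 females and 1 male.

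Depth ranged from 24261799 to 35067068 counts per retina. The targeted gene, Yap1, was at 9.48, 9.52 and 9.83 TPM (transcript abundance scaled for gene length and library size) in the controls and at 3.99, 3.76 and 3.94 TPM in the Yap cKO retinas (log2 fold change -1.36 ± 0.09, SE, adjusted p = 0.000282). The marker of the amacrine list, Tfap2a, stood between 22.4 and 30.4 TPM and that of the RGC list, Pou4f1, between 34.4 and 39.7 TPM over all 6 retinas, so defining markers of both cell types were detected in every library. In whole-retina RNA, fewer cells of a type and less RNA per cell cannot be told apart.

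Genes were called at an adjusted p of at most 0.05 by edgeR's quasi-likelihood test, with adjustment over all 16575 tested genes. By this rule 247 genes (1.49%) were called, 0.501% as higher and 0.989% as lower in Yap cKO retinas. At the same threshold the edgeR likelihood ratio test called 6.18% of the tested genes, DESeq2 5.38% and limma-voom 1.64%, and counts by these tests below stand against those shares. The share of all tested genes at an unadjusted p under 0.05 was not computed. Counts at that level below therefore stand without a background share and cannot be read as an excess. Of the 42 neuronal genes, 2 were called, both of them neuropeptide genes of amacrine cells. Penk fell and Vip rose. None of the 18 RGC genes was called, and none had an unadjusted p under 0.05. The study's stricter rule, which also asks for a fold change of 1.5 and a mean of 5 TPM in 1 group, called 0.796% of all genes and the same 2 members.

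The upstream sequences of 3 called genes are shown first, because the called genes with an entry among RefSeq promoters (GRCm38.p6) are a neuropeptide gene, a peptide-processing gene and a peptide-binding gene, and because peptide genes are textbook targets of cyclic AMP signalling through the cyclic AMP response element (CRE). Each line gives the 250 bases before the annotated start, 5′ to 3′ on the gene's strand, with capitals marking the core CRE motif TGACG or its reverse complement CGTCA. The Vip window is chr10:5638968-5639217 (plus strand), the Pcsk1 window is chr13:75089607-75089856 (plus strand) and the Crhbp window is chr13:95444832-95445081 (minus strand).
Vip: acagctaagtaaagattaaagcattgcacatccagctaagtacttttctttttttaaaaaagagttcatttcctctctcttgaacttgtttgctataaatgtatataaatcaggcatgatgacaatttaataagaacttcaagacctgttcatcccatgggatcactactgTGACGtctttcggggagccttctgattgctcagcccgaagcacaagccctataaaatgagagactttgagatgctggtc
Pcsk1: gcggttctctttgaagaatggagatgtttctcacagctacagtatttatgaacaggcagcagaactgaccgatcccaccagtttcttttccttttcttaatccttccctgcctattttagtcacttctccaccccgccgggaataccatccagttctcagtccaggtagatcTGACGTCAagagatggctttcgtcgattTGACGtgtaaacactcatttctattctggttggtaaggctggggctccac
Crhbp: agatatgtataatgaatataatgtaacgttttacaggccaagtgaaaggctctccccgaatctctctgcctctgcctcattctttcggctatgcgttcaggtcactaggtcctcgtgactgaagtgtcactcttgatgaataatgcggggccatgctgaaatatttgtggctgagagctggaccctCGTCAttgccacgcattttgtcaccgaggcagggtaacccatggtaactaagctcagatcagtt

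Pcsk1 holds the full palindrome TGACGTCA and a further core motif, and Vip and Crhbp hold 1 core motif each. The motif was chosen after the Vip window had been seen. Among the 42 genes, 28 had at least 1 entry, with 34 windows in all, and 13 of these windows (38.2%) held TGACG on either strand against 17.8% of all 32851 windows of the same length. Full palindromes stood before Isl2, Sst and Th and in 1.55% of all windows. The TEAD motif CATTCC was found before Dab1 alone, in 2.94% of the member windows against 12.6% of all windows, and in none of the 3 windows shown. These matches describe letters in a window and say nothing of binding. Penk had no entry, and the window before Npy held none of these motifs.

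Penk (ENSMUSG00000045573, chr4:4133531-4138819, minus strand, GRCm38) encodes proenkephalin, the precursor of the enkephalin opioid peptides, and marks a set of amacrine cells. It was at 161, 71.8 and 89.7 TPM in control retinas and at 24.1, 34.2 and 21.0 TPM in Yap cKO retinas. The groups did not overlap: the lowest control stood above the highest knockout by more than the range of the knockouts. Means were 108 ± 47.3 and 26.5 ± 6.86 TPM (SD, n = 3 each), a log2 fold change of -2.09 ± 0.31 (SE, 95% interval -2.77 to -1.40, adjusted p = 0.0147), or 4.24-fold lower. Control YR612 held the highest level, and without it the adjusted p was 0.0167. Without control YR615 it was 0.0548, and the call was lost, in a fit that called 0.291% of all genes against 1.49% in the main test.

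Vip (ENSMUSG00000019772, chr10:5639218-5647617, plus strand) encodes vasoactive intestinal peptide, which marks other amacrine cells that release GABA. It was at 16.1, 18.4 and 23.8 TPM in controls and at 34.1, 34.5 and 33.8 TPM in Yap cKO retinas. The knockouts lay within 1 TPM of each other and all above the highest control. The log2 fold change was 0.75 ± 0.13 (SE, interval 0.47 to 1.04, adjusted p = 0.0271), or 1.69-fold higher. Leaving out knockout YR713 gave an adjusted p of 0.123, leaving out control YR612 gave 0.117 and leaving out knockout YR711 gave 0.0541, so the call was lost in each case, with the fold change still positive. These fits called 0.552%, 0.331% and 0.923% of all genes, fewer than the 1.49% of the main test.

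Npy, neuropeptide Y of amacrine cells, stood at 76.6, 75.8 and 87.6 TPM in controls and at 114, 115 and 112 TPM in Yap cKO retinas. These groups did not overlap either, and the log2 fold change of 0.45 ± 0.10 had an adjusted p of 0.0669. Crh, corticotropin-releasing hormone, was a low gene at 2.76, 2.10 and 2.76 TPM in controls and 2.97, 7.57 and 6.32 TPM in knockouts. Knockout YR711 was only just above the controls, and the log2 fold change of 1.11 ± 0.34 had an adjusted p of 0.126.

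The other peptide genes overlapped between groups. Tac1, the substance P precursor, was at 24.2, 28.7 and 33.4 TPM in controls and 30.9, 43.9 and 40.4 TPM in knockouts (log2 fold change 0.36, adjusted p = 0.204). Sst, somatostatin, was at 28.8, 24.1 and 31.0 TPM against 28.9, 30.0 and 46.3 TPM, where knockout YR714 alone exceeded the controls (0.27, adjusted p = 0.475). Cck, cholecystokinin, was at 28.8, 23.48 and 33.1 TPM against 24.5, 26.4 and 37.6 TPM (-0.01, adjusted p = 0.986).

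The shares of the peptide transcripts differed between the groups. Of the summed TPM of the 7 peptide genes, Penk made up 47.6%, 29.4% and 29.8% in the controls and 9.30%, 11.7% and 7.07% in the knockouts. Npy made up 22.6%, 31.0% and 29.1% in the controls and 44.0%, 39.4% and 37.7% in the knockouts, and ranked first in all 3 knockouts and in control YR613, with Penk first in the other controls. Because the sum includes Penk, a lower Penk by itself raises the share of every other peptide gene. The Npy shares and ranks are therefore no finding separate from the fall of Penk, and shares without Penk were not computed. The summed level itself overlapped, at 244 to 338 TPM in controls and 260 to 298 TPM in knockouts.

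**Figure D1:**
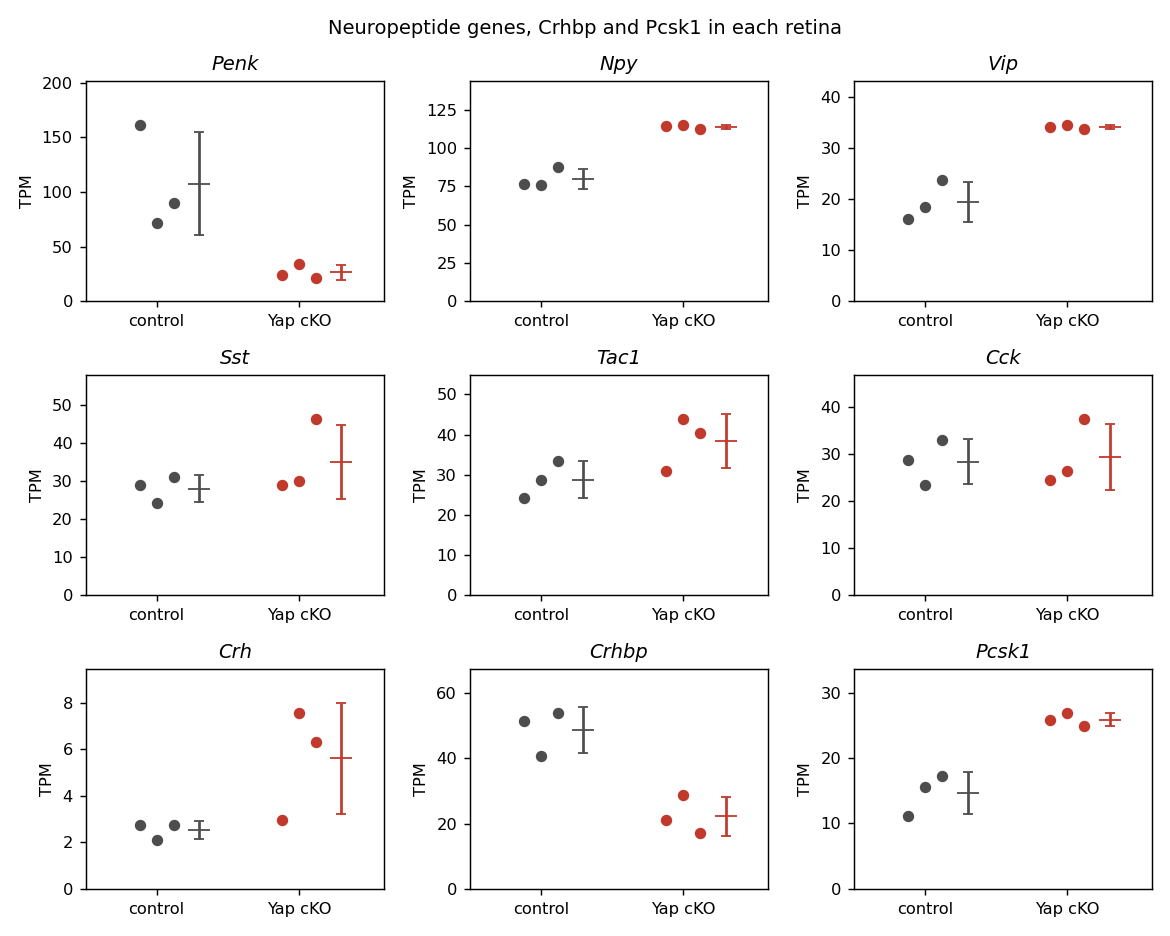
TPM (vertical axes, from 0) of the 7 neuropeptide genes and of Crhbp and Pcsk1 in each retina, with grey points for the 3 controls and red points for the 3 Yap cKO retinas. Bars give the mean and SD of each group. Penk and Crhbp are lower and Vip, Npy and Pcsk1 higher in every knockout than in every control.

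The genes that act on these peptides were examined as a list of 28 receptor, binding-protein and processing genes, of which 23 were tested and 2 called, against 1.49% of all tested genes. The edgeR likelihood ratio test called 4, DESeq2 4 and limma-voom 2, and 10 had an unadjusted p under 0.05. In 10 of the 23 every knockout exceeded every control and in 2 the reverse, against 15.2% and 9.04% of all tested genes. Crhbp (ENSMUSG00000021680), a secreted protein that binds and inactivates CRH, fell from 51.5, 40.8 and 53.9 TPM in controls to 21.1, 28.8 and 17.1 TPM in knockouts (log2 fold change -1.18 ± 0.19, adjusted p = 0.0207). Pcsk1 (ENSMUSG00000021587), a prohormone convertase that cuts peptide precursors, rose from 11.1, 15.6 and 17.3 TPM to 25.8, 26.9 and 24.9 TPM (0.76 ± 0.13, adjusted p = 0.0290). Neither gene overlapped between groups. Crhbp lost its call without control YR612 (adjusted p = 0.105), control YR615 (0.115) or knockout YR711 (0.0513), and Pcsk1 without control YR612 (0.0556), knockout YR711 (0.0568) or knockout YR713 (0.138). Fits without YR612, YR615, YR711 and YR713 called 0.331%, 0.291%, 0.923% and 0.552% of all genes, fewer than in the main test. Over the 23 genes the median log2 fold change was 0.12, against 0.00 over all tested genes, and 16 were positive.

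Some markers of tissue outside the neural retina were also lower in all 3 knockouts, and others were not. Optc, opticin of the ciliary non-pigmented epithelium, was at 50.2, 45.6 and 48.2 TPM in controls and 2.86, 8.39 and 2.44 TPM in knockouts (log2 fold change -3.41, adjusted p = 0.00243), and of the 5 listed genes of that epithelium Optc was the only call (2 by the edgeR likelihood ratio test and 2 by DESeq2, each Optc and Otx1). Of these 5 genes 4 had a negative log2 fold change, and the median was -0.43. In 2 of the 5 every knockout was below every control and in 1 the reverse, against 9.04% and 15.2% of all tested genes. At an unadjusted p under 0.05, 3 were lower and 1 higher. Aqp1, a water channel and the only positive gene of the list, was higher in every knockout (log2 fold change 0.29, adjusted p = 0.126). The summed TPM of the 5 genes overlapped, at 322 to 339 in controls and 304 to 377 in knockouts. Among knockouts YR713 was highest for Penk, Crhbp and Optc alike. The summed TPM of 5 melanin genes was 70.6 to 77.9 in controls and 16.7, 47.7 and 26.1 in YR711, YR713 and YR714. YR713 was again the highest knockout. All 5 genes were lower without overlap, against 9.04% of all tested genes. Pmel was the only call (adjusted p = 0.0347), against 1.49% of all tested genes. The edgeR likelihood ratio test called 4, DESeq2 2 and limma-voom 1, and 4 had an unadjusted p under 0.05. The summed TPM of 6 retinal pigment epithelium genes was 654 to 721 in controls and 202, 371 and 706 in YR711, YR713 and YR714, with none of the 6 called (1 at an unadjusted p under 0.05, and 0 by the edgeR likelihood ratio test, by DESeq2 and by limma-voom). Penk was at its lowest in YR714, where the pigment epithelium sum was at the control level and the melanin sum was below every control. The part of these tissues in the Penk and Crhbp results was not tested.

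**Figure D2:**
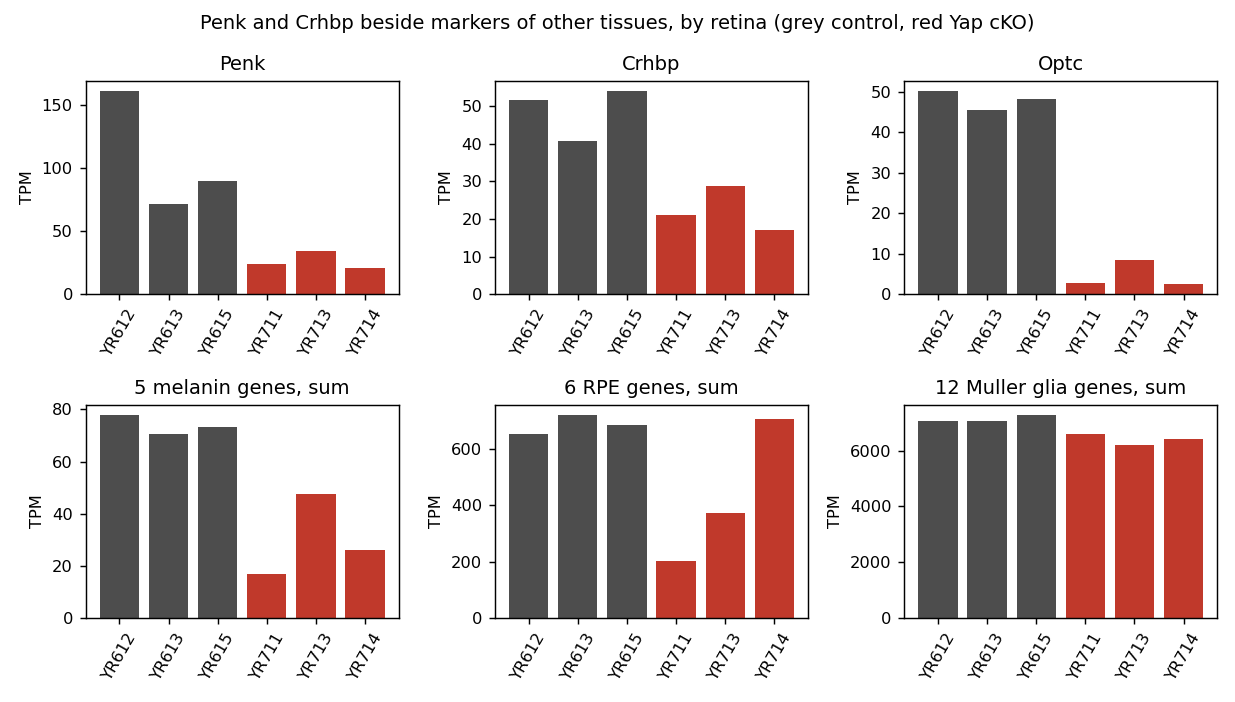
TPM (vertical axes, from 0) of Penk, Crhbp and Optc and the summed TPM of melanin, retinal pigment epithelium (RPE) and Müller glia marker lists in each retina, grey for control and red for Yap cKO. The RPE sum is low in YR711 and YR713 and at the control level in YR714, whereas Penk, Crhbp, Optc and the melanin sum are below every control in all 3 knockouts.

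Most amacrine genes had a positive, uncalled difference. Over the 24 genes, peptides included, the median log2 fold change was 0.22 against 0.00 over all tested genes, with 18 positive and 6 negative, and 14 had an unadjusted p under 0.05. In 11 of the 24 every knockout exceeded every control, and in 3 every knockout was below every control. Over all tested genes these shares were 15.2% and 9.04%. Among the 17 amacrine genes that are not peptide genes, the median was 0.17, with 13 positive, 9 at an unadjusted p under 0.05, 8 higher and 2 lower without overlap, and 0 called (3 by the edgeR likelihood ratio test, 2 by DESeq2 and 0 by limma-voom). Taken per retina, the median amacrine gene stood at -0.12, 0.07 and 0.05 (log2 relative to the control mean) in the controls and at 0.25, 0.27 and 0.23 in the knockouts.

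Relative expression followed exonic length differently in each library, with Spearman coefficients of -0.41, 0.17 and -0.41 in the controls and 0.40, 0.39 and -0.15 in the knockouts, and over all tested genes the log2 fold change followed length with a coefficient of 0.39. In the same order of retinas, the amacrine medians were -0.12, 0.07 and 0.05 in the controls and 0.25, 0.27 and 0.23 in the knockouts. The part of the length trend in the amacrine medians was not tested. Across the 42 neuronal genes, which share the 6 libraries, the coefficient was 0.29. A fit that removed the length trend within each library called 2.76% of all genes and 3 members, Penk (log2 fold change -1.94, adjusted p = 0.00660), Vip (0.80, adjusted p = 0.00723) and Npy (0.56, adjusted p = 0.0195). In that fit the median of the amacrine genes was 0.13, with 17 of 24 positive. The edgeR likelihood ratio test, a less conservative test on the same counts, called 6.18% of all genes and 7 amacrine genes, adding Npy (adjusted p = 0.0127), Chat (0.0280), Crh (0.0416), Nos1 (0.0448) and Neurod6 (0.0463) to Penk and Vip.

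**Figure D3:**
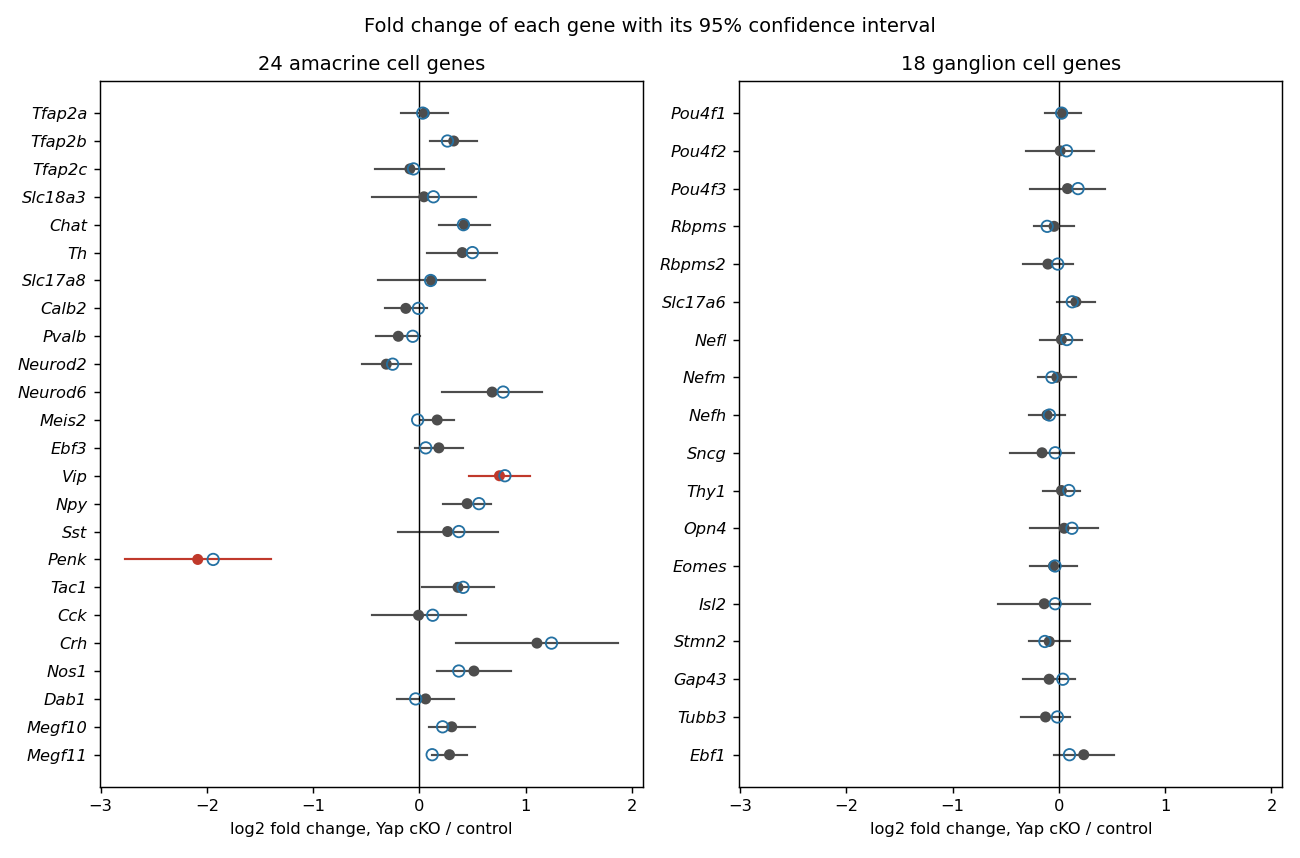
Log2 fold change (Yap cKO against control, horizontal axis) of the 24 amacrine and 18 ganglion cell genes, with 95% confidence intervals as lines, and red for the 2 called genes, Penk and Vip. Open blue circles give the fold change after correction for gene length, which moves Meis2 from 0.17 to -0.02 and Megf11 from 0.28 to 0.12.

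Genes for the synthesis and transport of amacrine transmitters were all 5 positive, and none was called (3 at an unadjusted p under 0.05, 2 by the edgeR likelihood ratio test, 2 by DESeq2 and 0 by limma-voom). Chat, the enzyme that makes acetylcholine in starburst amacrine cells, was at 9.70, 11.7 and 10.5 TPM in controls and 16.4, 15.1 and 13.1 TPM in knockouts. These groups did not overlap, with a log2 fold change of 0.42 ± 0.11 and an adjusted p of 0.0884. Slc18a3, the vesicular acetylcholine transporter of the same cells, lies inside the span of Chat on the same strand (chr14:32462438-32464850 within chr14:32408203-32465989, GRCm38). Its own counts gave another pattern, at 18.6, 14.3 and 16.7 TPM against 14.1, 15.0 and 24.02 TPM, with knockout YR714 alone above the controls (0.04 ± 0.22, adjusted p = 0.923).

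Th, tyrosine hydroxylase of dopaminergic amacrine cells, was at 7.76, 7.10 and 7.16 TPM in controls and 8.81, 10.1 and 11.4 TPM in knockouts (log2 fold change 0.40 ± 0.15, adjusted p = 0.170). Nos1, neuronal nitric oxide synthase, was at 4.72, 7.08 and 4.68 TPM against 7.88, 7.58 and 8.91 TPM (0.51 ± 0.15, adjusted p = 0.122). Neither gene overlapped between the groups, although for Nos1 control YR613 came close to the knockouts. Slc17a8, the vesicular glutamate transporter of a glutamate-releasing amacrine type, ranged from 10.6 to 16.8 TPM in controls and from 11.3 to 22.1 TPM in knockouts, which overlapped.

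The 7 transcription factors of amacrine subtypes gave 0 calls (4 at an unadjusted p under 0.05, 1 by the edgeR likelihood ratio test, 0 by DESeq2 and 0 by limma-voom). The AP-2 factors differed among themselves. Tfap2b was at 84.2, 107 and 92.6 TPM in controls and 138, 123 and 109 TPM in knockouts (log2 fold change 0.32 ± 0.10, adjusted p = 0.126), where the highest control almost reached the lowest knockout. Tfap2a was at 22.4, 27.5 and 27.7 TPM against 30.4, 25.7 and 27.3 TPM (0.05 ± 0.10, adjusted p = 0.798), and Tfap2c ranged from 13.1 to 16.9 and from 12.8 to 17.6 TPM (-0.09). Both overlapped between the groups.

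Neurod6, which marks a small amacrine population that uses neither GABA nor glycine, was at 1.90, 3.05 and 2.97 TPM in controls and 4.08, 5.13 and 4.02 TPM in knockouts (log2 fold change 0.68 ± 0.21, adjusted p = 0.125). Its relative Neurod2 lay on the other side, at 18.04, 18.8 and 17.7 TPM against 15.1, 14.4 and 16.3 TPM (-0.31 ± 0.10, adjusted p = 0.140). Neither overlapped. Meis2, a homeobox gene of GABAergic amacrine cells, was at 46.4, 53.4 and 49.5 TPM against 59.0, 60.1 and 55.3 TPM without overlap (0.17 ± 0.07, adjusted p = 0.216), but it is the longest of the amacrine genes at 12043 exonic bases, and its fold change turned to -0.02 after length correction. Ebf3 ranged from 15.6 to 18.5 TPM in controls and from 17.3 to 23.0 TPM in knockouts and overlapped.

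The 2 calcium-binding protein genes on the amacrine list both had a negative, uncalled difference. Pvalb, parvalbumin, was at 104, 103 and 109 TPM in controls and 88.7, 95.5 and 102.5 TPM in knockouts (log2 fold change -0.20 ± 0.09, adjusted p = 0.250). The gap between the groups was under 1 TPM, and the length-corrected fold change was -0.06. Calb2, calretinin, ranged from 1139 to 1329 TPM in controls and from 1134 to 1231 TPM in knockouts (-0.13), the highest TPM among the amacrine genes, and overlapped.

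Megf10 and Megf11 encode cell-surface proteins that space starburst amacrine and horizontal cells into mosaics. Megf10 was at 14.4, 18.3 and 15.1 TPM in controls and 22.3, 20.6 and 18.6 TPM in knockouts (log2 fold change 0.30 ± 0.10, adjusted p = 0.134). Megf11 was at 12.2, 13.6 and 12.4 TPM against 16.4, 16.8 and 15.1 TPM (0.28 ± 0.07, adjusted p = 0.0947). Both were without overlap, and both shrank with length correction, to 0.22 and 0.12. Dab1, the adaptor of the Reelin receptors, ranged from 22.9 to 29.7 and from 24.7 to 34.5 TPM and overlapped.

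A separate list of 26 amacrine genes, including the GABA and glycine machinery and further transcription factors, gave 0 calls among 24 tested (10 at an unadjusted p under 0.05, 1 by the edgeR likelihood ratio test, 1 by DESeq2 and 0 by limma-voom). Its median log2 fold change was 0.22, with 21 positive, and 0.19 with 18 positive after length correction. In 11 of the 24 every knockout exceeded every control and in 0 the reverse, against 15.2% and 9.04% of all tested genes. This list was also chosen with earlier results of these data known and comes from the same libraries, so it is no independent repeat. The smallest p belonged to Lhx9, a LIM-homeobox transcription factor, at 3.46, 4.36 and 4.30 TPM in controls and 5.47, 6.09 and 5.72 TPM in knockouts without overlap (0.46, adjusted p = 0.0846).

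Markers of other retinal cells give a scale for these values, since TPM and library scaling are relative. The summed TPM of 12 Müller glia genes was 7053 to 7277 in controls and 6191 to 6597 in knockouts, which did not overlap, with 0 of 12 called (6 at an unadjusted p under 0.05, 1 by the edgeR likelihood ratio test, 1 by DESeq2 and 1 by limma-voom). The summed TPM of 8 rod genes overlapped, at 54293 to 58024 in controls and 51423 to 56000 in knockouts. Other inner retinal neurons also had positive medians. The median of the 4 horizontal cell genes was 0.48 on the log2 scale, and they summed to 24.3 to 26.7 TPM in controls and 27.8 to 31.7 TPM in knockouts, with 0 called (3 at an unadjusted p under 0.05, 1 by the edgeR likelihood ratio test and 0 by DESeq2 and by limma-voom). The 8 bipolar cell genes went both ways, with a median of 0.12, 5 positive and 3 negative, and a lowest log2 fold change of -0.40. At an unadjusted p under 0.05, 3 were higher and 3 lower. Grm6, a glutamate receptor of ON bipolar cells, was the only call, as higher (0.46, adjusted p = 0.0249). The edgeR likelihood ratio test called 3 of the 8, DESeq2 3 and limma-voom 1. Their sum overlapped, at 1583 to 1684 TPM in controls and 1419 to 1675 TPM in knockouts. Immediate early genes, which report recent neuronal activity, gave 0 calls among 8 (4 at an unadjusted p under 0.05 and 0 by the edgeR likelihood ratio test, by DESeq2 and by limma-voom), with a median log2 fold change of -0.12.

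**Figure D4:**
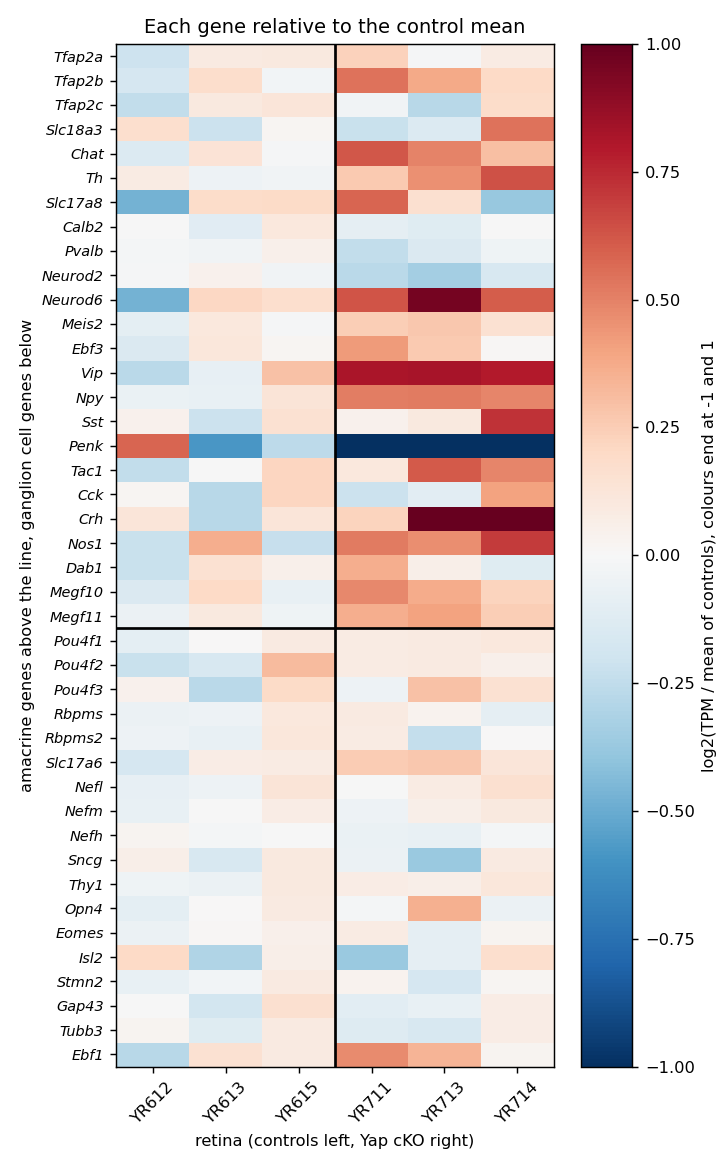
Colour gives log2 of TPM relative to the mean of the 3 controls for each of the 42 genes (rows) in each retina (columns), with red above and blue below the control mean and colours ending at -1 and 1. The 3 knockouts differ from the controls in many amacrine rows, with Penk blue and Vip and Npy red in all 3. In the ganglion cell rows below the line, knockout values reach 0.47 (Ebf1 in YR711) and -0.37 (Sncg in YR713).

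The 18 RGC genes stood close to their control levels. Over the 18 genes the median log2 fold change was -0.03, and 0.01 after length correction, with 8 positive and 10 negative. No RGC gene was called by edgeR's quasi-likelihood test, and the edgeR likelihood ratio test, DESeq2 and limma-voom gave 0 as well. The 95% confidence intervals of all 18 lay inside a 1.5-fold change in either direction, the widest reaching -0.57 (Isl2) and 0.51 (Ebf1). Among the amacrine genes the same held for 13 of 24.

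The POU-domain factors specify and maintain RGCs. Pou4f1 was at 34.4, 37.0 and 39.2 TPM in controls and 38.90, 39.2 and 39.7 TPM in knockouts, a log2 fold change of 0.03 ± 0.08 (interval -0.14 to 0.20, adjusted p = 0.811). The knockouts sat within the upper end of the control range or just above it. Pou4f2 ranged from 14.9 to 21.7 TPM in controls, which took in all 3 knockouts, and Pou4f3 from 10.04 to 13.8 TPM in controls and from 11.7 to 14.8 TPM in knockouts, with log2 fold changes of 0.01 and 0.08. Isl2, a LIM-homeobox factor of RGC subsets, and Eomes, a T-box factor of melanopsin cells and other RGC types, stood at -0.14 and -0.05. Ebf1 had the largest positive value of the RGC list, 0.23, which was 0.10 after length correction.

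Rbpms and Rbpms2, RNA-binding proteins that label nearly all RGCs, were at 22.5 to 25.2 and 53.7 to 61.1 TPM in controls and at 22.0 to 25.0 and 47.8 to 59.8 TPM in knockouts. Their log2 fold changes were -0.05 (interval -0.23 to 0.14) and -0.10 (interval -0.34 to 0.13). Both ranges overlapped, with knockout YR713 lowest for Rbpms2.

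The neurofilament subunits, which set the calibre of RGC axons, differed little between the groups. Nefl, the light chain, was at 835, 852 and 966 TPM in controls and 882, 934 and 989 TPM in knockouts (log2 fold change 0.02, interval -0.17 to 0.22). Nefm ranged from 163 to 180 and from 165 to 184 TPM (-0.02), and Nefh from 144 to 148 and from 138 to 144 TPM (-0.11). The proportions were kept too, with Nefl making up 72.9% to 75.1% of the summed TPM of the 3 subunits in the 6 retinas.

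Among axonal and surface proteins, Thy1, a glycoprotein of the RGC surface, was at 339 to 378 TPM in controls and 369 to 381 TPM in knockouts (log2 fold change 0.02, interval -0.15 to 0.20). Sncg, gamma-synuclein, ranged from 599 to 715 TPM in controls and from 517 to 714 TPM in knockouts and had the lowest value of the list, -0.16 (interval -0.46 to 0.14), where knockout YR713 alone was below the controls. Tubb3, neuronal beta-tubulin, stood at -0.13, Gap43, a growth cone protein, at -0.09, and Stmn2, a microtubule regulator of axons, at -0.09. All 5 overlapped between the groups.

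Slc17a6, the vesicular glutamate transporter of RGCs, was the only RGC gene without overlap, at 71.0, 84.0 and 84.5 TPM in controls and 95.3, 96.1 and 87.0 TPM in knockouts. The log2 fold change was 0.16 ± 0.08 (adjusted p = 0.274), and 1 such gene of 18 is below the 15.2% of all genes that were higher without overlap. Opn4, melanopsin of the intrinsically photosensitive RGCs, was at 7.42 to 8.44 TPM in controls and 7.61 to 10.2 TPM in knockouts (0.05).

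A second list of 28 RGC genes gave 0 calls among 27 tested (10 at an unadjusted p under 0.05, 2 by the edgeR likelihood ratio test, 2 by DESeq2 and 0 by limma-voom), the median being 0.14 on the log2 scale and 19 genes positive. In 9 of the 27 every knockout exceeded every control and in 0 the reverse, against 15.2% and 9.04% of all tested genes, so this list stood higher than the 18 listed RGC genes, a difference that was not tested. Its smallest p belonged to L1cam, an axonal adhesion molecule (37.0, 40.3 and 34.2 TPM against 56.6, 55.8 and 45.5 TPM; 0.44, adjusted p = 0.0602), and to Kcna1, an axonal potassium channel (7.14, 13.5 and 8.79 TPM against 19.7, 21.0 and 12.3 TPM; 0.79, adjusted p = 0.119), which overlapped.

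Genes that RGCs induce after axon injury, a list of 14, gave 0 calls among 13 tested (2 at an unadjusted p under 0.05, 1 by the edgeR likelihood ratio test, 1 by DESeq2 and 0 by limma-voom), with a median of -0.04. Socs3, an inhibitor of cytokine signalling, was at 4.51, 4.19 and 4.01 TPM in controls and 2.44, 2.58 and 2.89 TPM in knockouts without overlap (-0.74 ± 0.16, adjusted p = 0.0610). Gadd45a, a stress-response gene, was at 53.9, 54.7 and 64.8 TPM against 64.3, 75.3 and 94.3 TPM, which overlapped (0.38 ± 0.15, adjusted p = 0.190; 0.49 with an adjusted p of 0.0467 after length correction).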

How the data were processed

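Libraries were prepared from retinal RNA with a stranded, poly(A)-selecting kit. The deposited values are whole-number counts per gene that the authors made by alignment to GRCm38 with STAR 2.7.3a, as their processing notes name it, and featureCounts 1.6.2 with strand-specific counting of read pairs over exons, per the file headers. No per-sample column was left out.

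Symbols came from a reference table of gene names, and TPM were computed here from counts and exonic length. Groups were compared in edgeR 4.0.16 (R 4.3.3) with filterByExpr, TMM factors and the quasi-likelihood F test without covariates, with Benjamini-Hochberg adjustment over 16575 genes; a gene was called at an adjusted p of at most 0.05. SE is the log2 fold change over the root of F, and intervals use the t quantile of the same test. The length correction subtracted a loess curve (span 0.3) of expression on log length within each retina. The script was tested on simulated data. Alternatives were DESeq2 1.42.0, limma 3.58.1 (voom), the edgeR likelihood ratio test, other scaling factors and filters, sex as a covariate, the study's fold and TPM minimums, and leaving out each retina.

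Members and lists were chosen with earlier results of these data known. In full were described members that were called or did not overlap in TPM, the list markers, and, of each related list, called genes or else the 2 with the smallest p (1 of these is not reported here); other values are ranges, and where a further gene is given its retinas it was chosen after its values were seen. Replicates measure the spread between retinas, 3 per group.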

Additional observations from a re-analysis of the deposited data

How the results depend on the processing

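Of the 42 neuronal genes, 2 were called in the main test, and this count was the same with median-ratio size factors, library size only, a CPM filter, limma-voom, sex as a covariate, and the fold and TPM minimums. It was 5 with DESeq2, 7 with the edgeR likelihood ratio test and 9 with no filter on low counts, settings that called 5.38%, 6.18% and 6.19% of all genes against 1.49%, all of them amacrine genes (Penk and Vip with Chat, Npy and Nos1 in DESeq2 and with these and Neurod6 and Crh in the likelihood ratio test), and 1 to 6 when 1 retina was left out. The lowest count, 1, was reached without YR612, YR615 or YR713, where 0.331%, 0.291% and 0.552% of all genes were called. Counts rose to 6 without control YR613 and to 4 without knockout YR714, where 8.84% and 5.89% of all genes were called. The RGC count was 0 in every one of these settings. Over the 4 related lists, 2 genes were called in the main test, 8 with DESeq2, 8 with the likelihood ratio test, 19 with no filter, 5 with length correction, and 0 to 11 when 1 retina was left out. The amacrine median moved from 0.22 to 0.13 with length correction and the RGC median kept within the spread between retinas.

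Direction changed in at least 1 setting for 17 of the 42 genes. With length correction Meis2 went to -0.016, Dab1 to -0.035, Cck to 0.13 and Gap43 to 0.037. With sex as a covariate Slc18a3 went to -0.053, Pou4f2 to -0.059, Pou4f3 to -0.017, Nefl to -0.032, Thy1 to -0.0044 and Opn4 to -0.0087, and with library size only Pou4f2 went to -0.0065. Leaving out 1 retina gave -0.027 to 0.11 for Tfap2a, -0.23 to 0.028 for Tfap2c, -0.26 to 0.18 for Slc18a3, -0.13 to 0.31 for Slc17a8, -0.0055 to 0.38 for Sst, -0.24 to 0.11 for Cck, -0.079 to 0.15 for Dab1, -0.079 to 0.20 for Pou4f2, -0.053 to 0.18 for Pou4f3, -0.090 to 0.0060 for Rbpms, -0.038 to 0.087 for Nefl, -0.072 to 0.026 for Nefm, -0.023 to 0.070 for Thy1, -0.095 to 0.11 for Opn4 and -0.086 to 0.00064 for Eomes. The cause was not tested for any of these. No paired analysis was possible because the labels give the groups no shared replicate numbers. With 3 retinas per group, uncalled amacrine differences reached 1.11 on the log2 scale (Crh).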
